A study of Mus musculus with 15 samples.

Results

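Microdissected colon adenoma cells from mice given sulindac and atorvastatin were set against normal colon epithelium from mice without tumors that were given atorvastatin. The comparison used 8 arrays of the 15 in the series. Arrays were assigned by their labels: 4 arrays of treated adenoma and 4 arrays of tumor-free epithelium. All mice were male Apc+/Min-FCCC mice on a C57BL/6J background, which carry 1 mutant copy of the tumor suppressor gene Apc and develop adenomas in the colon, and colonoscopy at 6 to 8 weeks of age separated animals with tumors from animals without. The treated adenomas came from tumor-bearing mice that received sulindac at 300 ppm together with atorvastatin at 100 ppm in chow for 7 days. The tumor-free epithelium came from mice that received atorvastatin alone at 100 ppm for 7 days. Sulindac is a nonsteroidal anti-inflammatory drug that blocks the cyclooxygenases, and atorvastatin is a statin, a drug that lowers cholesterol. The groups therefore shared the Apc genotype and atorvastatin, and differed in tissue, in sulindac and in whether the host carried tumors. The effects of these 3 differences cannot be told apart in this comparison. Untreated adenomas (3 arrays) and epithelium of tumor-bearing mice labelled with atorvastatin alone (4 arrays) entered the same model, which takes 1 estimate of the spread from all 4 groups, and each is set against a group of the comparison once, near the end. By the protocol text, however, animals with tumors got plain chow or the 2 drugs together, so the diet of the tumor-bearing epithelium is not settled.

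Loss of Apc function leaves beta-catenin in the cell, where it binds TCF/LEF factors and turns on Wnt target genes, several of which encode inhibitors of the same pathway. In the normal colon, Wnt signals are strongest at the base of the crypt, where Lgr5-positive stem cells lie. Absorptive colonocytes, goblet cells and enteroendocrine cells mature as they move toward the surface. Paneth cells, which secrete defensins, belong to the small intestine and are absent from the normal mouse colon.

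Not every array counted as a separate sample. Over probes well above background on both arrays, treated adenoma arrays 2, 3 and 4 had log2 differences between them with SDs of 0.0857 to 0.154, below the spot noise that the file headers give for background-subtracted signals (0.188 to 0.206 for these pairs). Tumor-free arrays 3 and 4 differed by 0.17, also below that noise (0.218). The noise that the headers give for processed signals was lower (0.0641 to 0.0749 for the 4 pairs), and every pair differed by more than that. The labels' protocol calls the arrays of a condition biological replicates. Under the first measure each of these sets was averaged and counted as 1 sample, which left 2 treated adenoma samples and 3 tumor-free epithelium samples. Treated adenoma array 1 differed from tumor-free array 1 by an SD of 0.937, against 0.924 to 0.983 from the other treated adenoma arrays. It was thus as near to 1 array of the other group as to its own group, and the counts of all called genes, of called named genes and of each list are also given without these 2 arrays. Leaving out treated adenoma array 1, or arrays 2, 3 and 4, leaves a single treated adenoma sample, which is then assumed to vary like the samples of the other groups, so calls kept or lost there carry no spread of their own group. Tumor-free array 2 and tumor-bearing array 2 differed by 0.183, close to their spot noise of 0.178, although they carry different labels. No statement in the labels ties a sample to its own animal, so p-values measure the spread between these samples, which may be technical. No scan date or slide held both groups, so scan and group cannot be told apart. The share of probes well above background was 59.0% to 69.4% on treated adenoma arrays and 66.3% to 75.5% on tumor-free epithelium arrays.

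**Figure D1:**
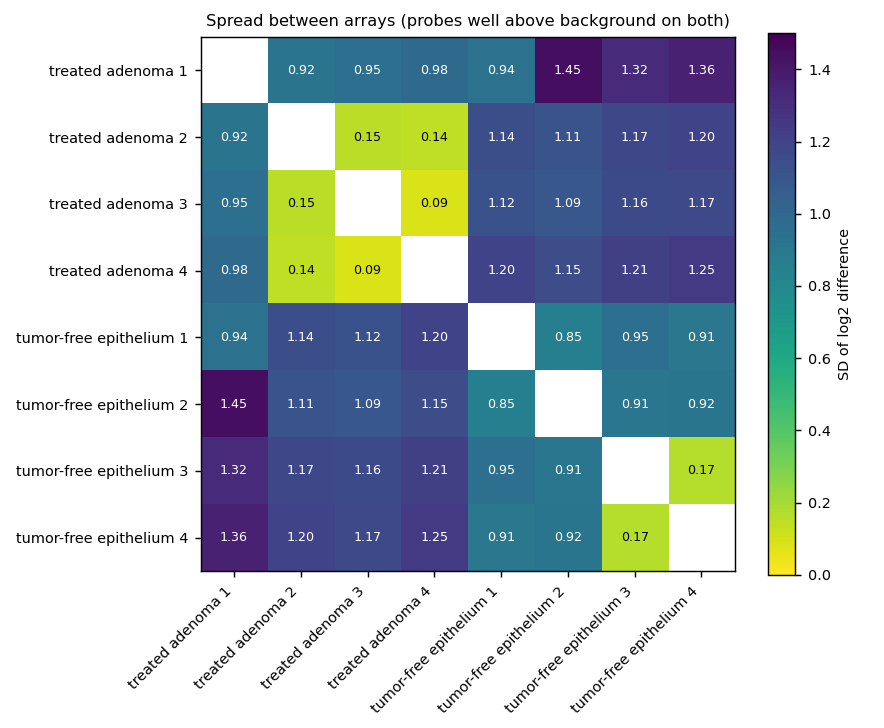
Heat map of the SD of the log2 difference between each pair of the 8 arrays, over probes well above background on both, with treated adenoma arrays above and left of tumor-free epithelium arrays. The pale blocks are treated adenoma arrays 2, 3 and 4 and tumor-free arrays 3 and 4, and the SD between treated adenoma array 1 and tumor-free array 1 was 0.94.

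Levels are log2 signals relative to the array's 75th percentile, so a level of 0 means the signal of a probe at that percentile, and differences are treated adenoma minus tumor-free epithelium. Of 18448 genes tested with limma, 1883 (10.2%) passed a Benjamini-Hochberg adjusted p of 0.05, with 837 (4.54%) higher and 1046 (5.67%) lower in treated adenoma. Without treated adenoma array 1 and tumor-free array 1, 709 passed, with 400 higher and 309 lower. That fit tested 18646 genes. List counts below are read against the 4.54% and 5.67% of all tested genes. Counts without these 2 arrays are read against the smaller share that passed there. At an unadjusted p under 0.05 there were 4313 genes in the fit with all arrays. The called genes differed by a median of 3.29 on the log2 scale in either direction, and the smallest called difference was 1.37, so no smaller difference passed with these sample numbers. The median difference over all tested genes was -0.14 and moved to -0.04 with quantile normalization, and list medians below are read against the first value. The samples of both groups did not overlap for 8099 of the tested genes (43.9%). All 1883 called genes were among these, so a lack of overlap adds nothing to a call. Of the called genes, 179 were not well above background on any treated adenoma array and 122 on any tumor-free array. For these a fold is given as "at least", because the dim group has only an upper limit. Where only some arrays of a group measured a gene, the difference is the fitted value and the number of arrays is given.

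**Figure D2:**
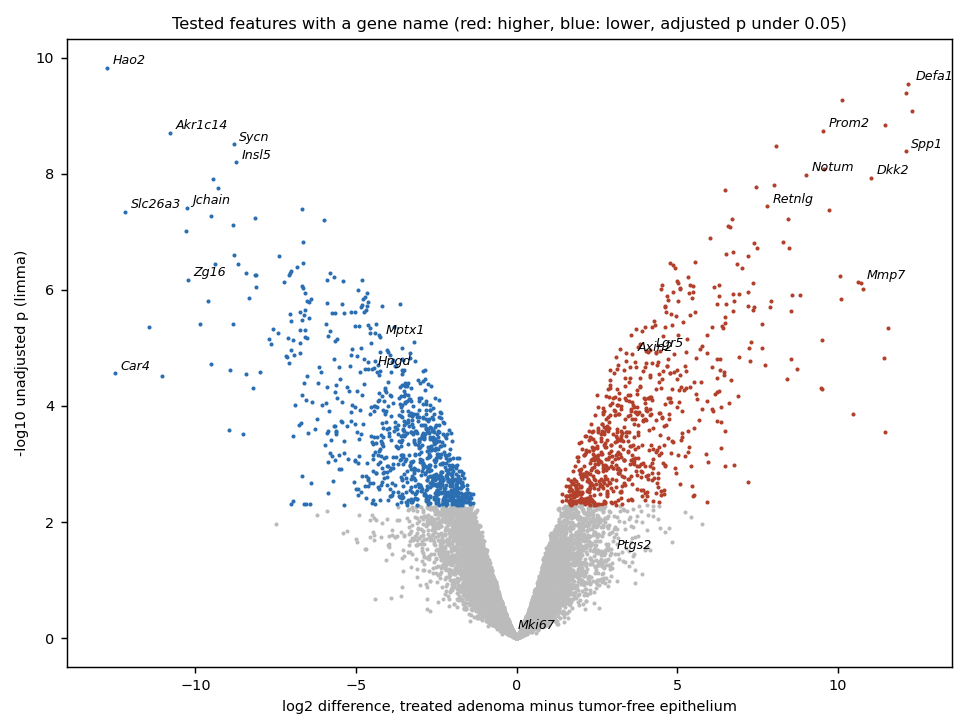
Log2 difference, treated adenoma minus tumor-free epithelium (horizontal axis), against -log10 of the unadjusted limma p (vertical axis) for the 15556 tested features with a gene name. The 733 red points passed the adjusted threshold higher in treated adenoma and the 914 blue points lower, with Defa1, Spp1 and Dkk2 far to the right and Hao2, Car4 and Slc26a3 far to the left.

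Wnt target genes stood higher in treated adenoma than in tumor-free epithelium: 15 of 24 rose, none fell, and the list median was 3.88. Without treated adenoma array 1 and tumor-free array 1, 11 rose. Of the 24, 4 passed the filter on low signals only through treated adenoma, and 11 of the 20 measured in both groups rose. Secreted inhibitors of the pathway were among the deepest differences. Dkk2, a secreted regulator that binds the Wnt co-receptors LRP5 and LRP6, had levels of 3.94 and 3.21 in treated adenoma, against -7.07, -8.78 and -6.56 in tumor-free epithelium, where 1 of 4 arrays was well above background. The groups were far apart (log2 difference 11.04 ± 0.65 SE, limma adjusted p = 1.313e-05). Its probe lies on mm7 chromosome 3 between 131976322 and 131976381. Notum, an enzyme that removes the lipid that Wnt ligands need, had levels of 2.48 and 3.82, against -5.45, -6.23 and -5.88. All samples of Notum were apart by group, with 3 of 4 tumor-free arrays well above background (9.01 ± 0.53, limma adjusted p = 1.269e-05). Wif1, which binds Wnt ligands, had levels of 3.30 and 4.04 in treated adenoma and -3.05, -3.24 and -5.95 in tumor-free epithelium, a log2 difference of 7.75.

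Intracellular members of the feedback loop moved the same way. Nkd1, an inhibitor that acts on Dishevelled, had levels of 5.10 and 5.96 in treated adenoma, against -2.54, -1.90 and -1.93 in tumor-free epithelium (log2 difference 7.65 ± 0.84 SE, limma adjusted p = 0.000395). Axin2, a scaffold of the beta-catenin destruction complex and a widely used readout of the pathway, had levels of 3.72 and 4.16, against 0.02, 0.75 and 0.25 (3.60 ± 0.45, limma adjusted p = 0.000896). Both genes separated the groups, and Axin2 had a signal well above background throughout. Apcdd1, a membrane inhibitor of Wnt signalling, rose by 6.52. Of the transcription factors on the list, Sp5 rose by 11.57, Prox1 by 8.54, Lef1 by 4.73 and Tcf7 by 3.38. Sp5 and Prox1 were each well above background on 1 of 4 tumor-free arrays, the call of Lef1 was lost without treated adenoma array 1, and that of Tcf7 with the median over its probes. Myc, a growth-promoting transcription factor, had levels of 2.72 and 3.15 in treated adenoma and 1.81, 1.89 and 2.27 in tumor-free epithelium. Its groups did not overlap, but the difference of 0.94 did not pass (limma adjusted p = 0.178). Ccnd1, which encodes cyclin D1, did not pass either: its difference was 0.95, with an overlap between groups. The 15 tested genes of the core Wnt pathway (receptors, Dishevelled and the destruction complex) gave 0 calls, with 1 gene at an unadjusted p under 0.05 and a median of 0.22, and 0 calls without treated adenoma array 1 and tumor-free array 1. Apc itself had levels of 2.01 and 0.77, against 1.38, 0.83 and 1.30, with overlap.

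The promoter of Sp5 is shown because Sp5 had one of the deepest rises and carries the TCF/LEF motif upstream of its start. The 250 bases before the start of each gene, from RefSeq on GRCm38.p6, were searched on both strands for CTTTGAT and CTTTGAA. A promoter was listed for 11 of the 15 risen Wnt targets, and 3 of the 11 (27.3%) held the motif in at least 1 listed promoter, against 8.63% of 27025 genes. Of 11 absorptive genes that fell, 2 (18.2%) held it. A match is a description of letters only. The capitals mark the motif, and its first base lies at -104 in Sp5 (chr2:70474673-70474922, plus strand) and at -202 in Tnfrsf19 (chr14:61037988-61038237, minus strand, the downstream of 2 listed starts). In the third gene, Mmp7, the match lay at -247 from the second of its listed starts, downstream of the first. In Cyp2c55, an absorptive gene that fell, capitals mark CAATAAA, searched with CCATAAA as the motif of the intestinal factor CDX2 (chr19:39006769-39007018, plus strand, at -232). Of 11 fallen absorptive genes, 1 (9.09%) held that motif, as did 1 of the 11 risen Wnt targets (9.09%), against 7.55% of genes.
Sp5: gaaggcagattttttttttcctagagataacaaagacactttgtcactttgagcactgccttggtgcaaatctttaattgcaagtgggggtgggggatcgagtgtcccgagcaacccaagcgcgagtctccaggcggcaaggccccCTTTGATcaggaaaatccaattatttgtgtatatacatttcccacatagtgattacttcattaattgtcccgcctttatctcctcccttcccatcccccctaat
Tnfrsf19: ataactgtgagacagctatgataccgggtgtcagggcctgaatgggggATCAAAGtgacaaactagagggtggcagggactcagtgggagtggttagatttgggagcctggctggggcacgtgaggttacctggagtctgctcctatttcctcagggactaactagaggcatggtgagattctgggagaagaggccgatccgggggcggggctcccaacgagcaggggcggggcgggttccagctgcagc
Cyp2c55: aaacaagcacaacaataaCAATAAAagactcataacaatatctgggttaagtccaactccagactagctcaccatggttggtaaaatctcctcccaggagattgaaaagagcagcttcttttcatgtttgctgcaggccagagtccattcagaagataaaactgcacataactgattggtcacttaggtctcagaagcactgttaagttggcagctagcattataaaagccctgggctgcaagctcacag

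Stem cell markers were split: 6 of 14 tested rose, 1 fell, and the median was 1.13. Without treated adenoma array 1 and tumor-free array 1, 2 rose, and 3 rose without treated adenoma array 1 alone or without arrays 2, 3 and 4. Lgr5, the receptor that marks crypt base stem cells, had levels of 4.57 and 4.79 in treated adenoma, against 0.75, 0.05 and 0.79 in tumor-free epithelium (log2 difference 4.15 ± 0.51 SE, limma adjusted p = 0.000809). Tnfrsf19, a receptor of the TNF family found on stem cells, had levels of 2.46 and 2.32, against -2.77, -2.75 and -2.47. Both genes separated all samples by group. Msi1, an RNA-binding protein, fell by 3.58, and Ascl2, the stem cell transcription factor, had a difference of -0.81 that did not pass. The calls of Rnf43 and Msi1 were lost without treated adenoma array 1, and that of Tnfrsf19 without arrays 1 of both groups. Axin2, Lgr5, Rnf43 and Tnfrsf19 stand on both the stem cell list and the Wnt target list.

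BMP and Notch genes gave 5 that rose and 1 that fell of 19 tested (median 0.67), and 1 rose without treated adenoma array 1 and tumor-free array 1. Leaving out treated adenoma array 1 alone left 2 that rose, and leaving out arrays 2, 3 and 4 left 1. Of the 19, 2 passed the filter only through tumor-free epithelium, Bmp2 among them. As reported, 26.3% of the list rose and 5.26% fell, against 4.54% and 5.67% of all tested genes. Grem1, a secreted BMP antagonist, had levels of 1.91 and 1.01 in treated adenoma, against -2.70, -3.14 and -5.13 in tumor-free epithelium. It separated the groups (log2 difference 5.12), and the call was lost without treated adenoma array 1. Hey1, a Notch target, rose by 3.79, and Bmp7, a BMP ligand, by 2.41, and both calls were lost without treated adenoma arrays 2, 3 and 4. Bmp2, another ligand, fell by 3.71 and was well above background on 1 of 4 treated adenoma arrays, and its call was lost without array 1 of either group.

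Paneth cell and deep crypt secretory genes gave 6 of 9 tested members that rose and 1 that fell (median 4.23), and 5 rose without treated adenoma array 1 and tumor-free array 1. Of the 9, 2 passed the filter only through treated adenoma. Defa1, an antimicrobial alpha-defensin, had levels of 3.09 and 4.08 in treated adenoma, against -8.94, -8.42 and -8.44 in tumor-free epithelium, where it was not well above background on any array. It was at least 1194-fold higher in treated adenoma (limma adjusted p = 2.434e-06). Lyz1, the Paneth cell lysozyme, rose by 4.23, with levels of 4.31 and 5.24 against 0.08, 0.79 and 0.77. Mmp7, a protease that processes defensins and a Wnt target, had levels of 5.17 and 6.19, against -4.74, -5.67 and -4.73. It was measured above background on every array of both groups (log2 difference 10.73 ± 0.98 SE, limma adjusted p = 0.00016), and its probe lies on mm7 chromosome 9 between 7695434 and 7695493. Pla2g2a, a secreted phospholipase of Paneth cells, rose by 5.78. Kit, a receptor of deep crypt secretory cells in the colon, went the other way and fell by 2.53, a call lost without treated adenoma arrays 2, 3 and 4. Defensin genes are close copies of each other, so a probe may read more than 1 of them. Defa23 was at least 1198-fold higher and Defa21 at least 459-fold higher in treated adenoma. Defa3, a list member that no array of either group read as dim, differed far less. It rose by 2.31 (limma adjusted p = 0.0428), a call lost without tumor-free array 1. Its levels were 1.39 and 2.82 in treated adenoma, against -0.65, 0.03 and 0.01 in tumor-free epithelium. The Defa3 probe thus gave a signal in tumor-free epithelium too, and whether it read Defa3 or another sequence was not tested.

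Neutrophil genes rose in 7 of 8 tested members, with none falling (median 5.23, or 4.52 with dim genes at their bounds), and 7 rose without treated adenoma array 1 and tumor-free array 1. The count was 4 without treated adenoma arrays 2, 3 and 4. Of the 8 tested, 5 passed the filter only through treated adenoma, 2 of the 3 measured in both groups rose, and Cxcr2 and Retnlg were not well above background on any tumor-free array. The linear signal of the 8 tested members was summed, in multiples of the 75th percentile. The sum was 16.4 and 48.2 in treated adenoma and 0.33, 0.238 and 0.19 in tumor-free epithelium. It leaves out Ngp, Camp and Elane, which were on the array but not tested, and 5 of its 8 members entered only through treated adenoma. S100a8, a calcium-binding protein abundant in neutrophils, had levels of 0.84 and 2.85 in treated adenoma, against -5.89, -8.48 and -6.57 in tumor-free epithelium, with 1 of 4 arrays well above background there (log2 difference 8.82 ± 0.85 SE, limma adjusted p = 0.000204). Retnlg, a resistin-like protein of neutrophils, was at least 47.7-fold higher, and Cxcr2, their chemokine receptor, at least 14.8-fold higher. In bulk samples of this kind, more cells of a type and more RNA per cell cannot be told apart.

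Cytokines and acute response genes rose in 13 of 23 tested members and fell in 1 (median 3.69, or 3.55 with dim genes at their bounds), and 6 rose without treated adenoma array 1 and tumor-free array 1. Leaving out treated adenoma array 1 alone left 7 that rose, and leaving out arrays 2, 3 and 4 left 8. Of the 23, 8 passed the filter only through treated adenoma, where they are high, and 6 of the 15 measured in both groups rose. Neutrophil genes moved with them, and the part of neutrophils in these values was not tested. Summed over the cytokine list, the linear signal was 129.8 and 161.4 in treated adenoma and 143.2, 235.6 and 161.3 in tumor-free epithelium. These sums overlapped, so the total signal of the list did not follow the count. Lcn2, an iron-binding protein of inflamed epithelium and neutrophils, had levels of 1.47 and 3.95 in treated adenoma, against -7.01, -4.79 and -8.62 in tumor-free epithelium, where 1 of 4 arrays was well above background (log2 difference 9.52, limma adjusted p = 0.000601). The neutrophil chemokine gene Cxcl2 was at least 29.6-fold higher, and Cxcl1 and Cxcl5 rose by 6.78 and 5.33, calls lost without treated adenoma array 1. Cxcl1 was well above background on 2 of 4 tumor-free arrays. The interleukin gene Il1b, measured on every array, had levels of 2.44 and 3.19, against -2.23, -3.45 and -4.18. Il6 had -0.48 and -4.43 in treated adenoma, far apart from each other, and was at least 18.1-fold higher. Saa1, an acute phase protein also made by colonocytes, fell by 4.73, with the call lost without array 1 of either group.

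Matrix proteases and matricellular proteins rose in 6 of 19 tested members and fell in 1 (median 2.03), and 2 rose without treated adenoma array 1, with or without tumor-free array 1. Of the 19, 2 passed the filter only through treated adenoma. Spp1, which encodes the secreted protein osteopontin, had levels of 5.27 and 5.01 in treated adenoma, against -6.03, -7.10 and -7.79 in tumor-free epithelium, where 1 of 4 arrays was well above background. The difference of 12.11 ± 0.64 SE was among the widest of all (limma adjusted p = 6.845e-06). Mmp10, a stromelysin, had levels of 4.94 and 4.78, against 0.08, 0.08 and -1.17. Mmp13, a collagenase, had 3.27 and -0.83 in treated adenoma, 2 samples far apart, and its rise was 4.49. Ccn1, Timp1 and Thbs1 rose by 2.38, 2.59 and 2.73. Postn, which encodes periostin, fell by 1.80. The calls of Mmp13, Ccn1, Timp1, Thbs1 and Postn were lost without treated adenoma array 1.

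**Figure D3:**
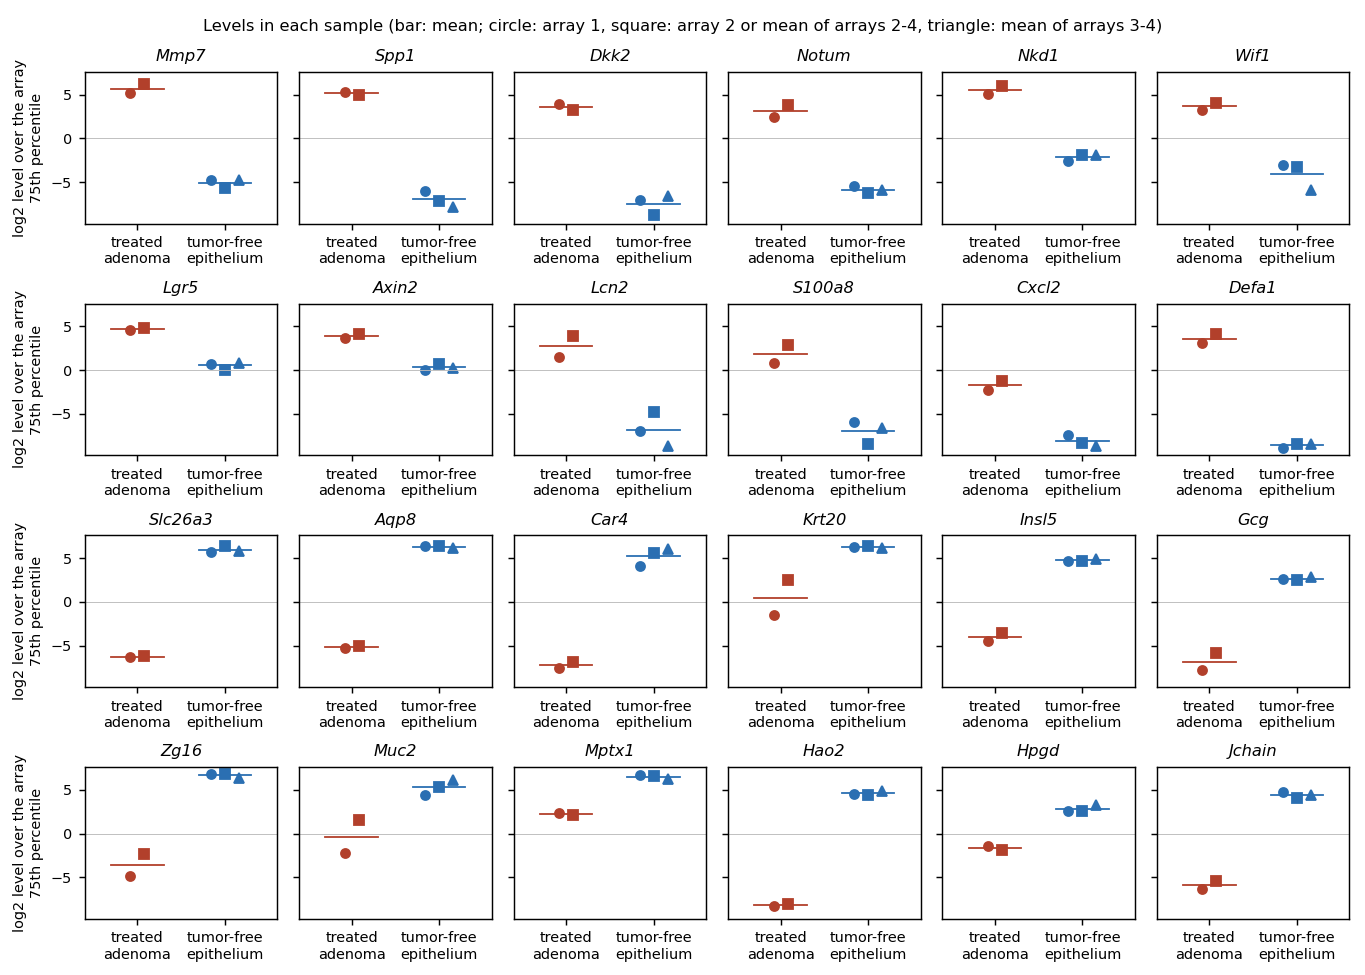
Levels of 24 genes in each sample, as log2 signal over the array's 75th percentile, with treated adenoma (red) left of tumor-free epithelium (blue) in each panel and bars at the group means. The first 12 panels show genes that rose in treated adenoma and the last 12 genes that fell, and no panel has overlapping groups.

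Absorptive colonocyte genes fell in 12 of 19 tested members, with none rising (median -5.43), and 8 fell without treated adenoma array 1 and tumor-free array 1. Of the 19, 6 passed the filter only through tumor-free epithelium, where they are high, and 8 of the 13 measured in both groups fell. Car4, a surface carbonic anhydrase, had levels of -7.61 and -6.88 in treated adenoma, not above background on any array, against 4.11, 5.63 and 6.01 in tumor-free epithelium. It was at least 2939-fold lower (limma adjusted p = 0.00144). Slc26a3, the chloride and bicarbonate exchanger of the colon, had levels of -6.26 and -6.23, against 5.64, 6.33 and 5.87, and 2 of 4 treated adenoma arrays were well above background. Aqp8, a water channel, was measured on every array and had -5.26 and -5.04, against 6.38, 6.40 and 6.10 (log2 difference -11.44 ± 1.28 SE, limma adjusted p = 0.000422). All 3 genes separated the groups widely. Krt20, a keratin of surface cells, had -1.51 and 2.46 in treated adenoma, against 6.28, 6.33 and 6.11, and its call was lost without treated adenoma array 1. Mep1a, a brush border protease, fell by 7.38. Slc9a3, a sodium and proton exchanger, did not follow: its levels were 2.19 and 3.14, against 1.47, -3.39 and 0.38, and it did not pass.

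Ion and water transport genes fell in 13 of 23 tested members, with none rising (median -3.54), and 6 fell without treated adenoma array 1 and tumor-free array 1. Without treated adenoma array 1 alone, or without arrays 2, 3 and 4, 8 fell. Of the 23, 3 passed the filter only through tumor-free epithelium, and 9 of the 20 measured in both groups fell. Besides the 3 above, Slc5a8, a transporter of short-chain fatty acids, had levels of -3.44 and -4.72 in treated adenoma, against 3.54, 4.19 and 4.39 in tumor-free epithelium. Atp12a, a colonic proton pump, fell by 6.55, Scnn1a, a subunit of the epithelial sodium channel, by 3.93, and Aqp4, another water channel, by 3.54, and these 3 calls were lost without treated adenoma array 1. Slc12a2, a chloride cotransporter of crypt cells, had a difference of 0.51 that did not pass.

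Goblet cell genes fell in 6 of 13 tested members, with none rising (median -2.56), and 4 fell without treated adenoma array 1, with or without tumor-free array 1. Of the 13, 12 were measured in both groups, and 6 of these fell. Zg16, a lectin that keeps bacteria from the mucus layer, had levels of -4.85 and -2.35 in treated adenoma, against 6.81, 6.77 and 6.34 in tumor-free epithelium (log2 difference -10.24 ± 0.93 SE, limma adjusted p = 0.000156). Muc2, the mucin that forms the mucus gel, had -2.25 and 1.52, against 4.37, 5.29 and 6.17. Klk1 and Clca1 fell by 6.75 and 6.60. The treated adenoma samples differed from each other by more than 2 log2 units for Zg16, Klk1 and Muc2, yet stayed below every tumor-free sample. Tff3 and Spink4, also goblet cell products, had differences of -0.82 and -0.55 and did not pass, so the fall did not cover the whole list.

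Enteroendocrine genes fell in 10 of 15 tested members and 1 rose (median -3.40), and 7 fell without treated adenoma array 1 and tumor-free array 1. Of the 15, 5 passed the filter only through tumor-free epithelium, where they are high, and 1 only through treated adenoma. Of the 9 measured in both groups, 6 fell and 1 rose. Insl5, a hormone of colonic L cells, had levels of -4.45 and -3.55 in treated adenoma, against 4.71, 4.64 and 4.86 in tumor-free epithelium (log2 difference -8.74 ± 0.48 SE, limma adjusted p = 9.538e-06). Gcg, which encodes proglucagon and so GLP-1, had -7.83 and -5.89, against 2.59, 2.52 and 2.89, and 2 of 4 treated adenoma arrays were well above background. Chga and Chgb, chromogranins of secretory granules, fell by 3.79 and 6.18, and Tph1, the enzyme of serotonin synthesis, by 3.93. Pyy, a further L cell hormone, had a difference of -0.19 and did not pass. Isl1, an islet and gut endocrine transcription factor, rose by 3.67 and thus went against the list, a call lost without treated adenoma array 1. Tuft cell genes gave 1 that rose (Avil, by 3.63) and 1 that fell (Trpm5, by 3.44, above background on 3 of 4 treated adenoma arrays) of 11 tested, with a median of -1.02. Each is 9.1% of the tested list, against 4.54% higher and 5.67% lower over all tested genes. Of these 11, 5 passed the filter only through tumor-free epithelium, and neither call held without treated adenoma array 1 and tumor-free array 1.

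Genes of xenobiotic metabolism fell in 18 of 26 tested members, with none rising (median -3.28), and 12 fell without treated adenoma array 1 and tumor-free array 1. Of the 26, 6 passed the filter only through tumor-free epithelium, and 13 of the 20 measured in both groups fell. All 4 sulfotransferases on the list fell (Sult1a1, Sult1b1, Sult1c2 and Sult1d1), and all 4 fell without these 2 arrays. Sult1d1 had levels of -4.50 and -4.62 in treated adenoma, against 2.09, 1.75 and 2.54 in tumor-free epithelium (log2 difference -6.69 ± 0.45 SE, limma adjusted p = 2.811e-05). Sult1a1 and Sult1c2 fell by 6.85 and 6.64. Among cytochromes P450, Cyp2f2 was at least 823-fold lower, Cyp2d13, a further member of that family outside the list, at least 292-fold lower, and Cyp2c55, above background on 3 of 4 treated adenoma arrays, fell by 8.42. Nr1i2, the nuclear receptor PXR that induces many of these enzymes, fell by 2.91. Its call was lost without treated adenoma array 1 and tumor-free array 1. Nqo1, a quinone reductase, had -1.83 and -1.50, against 1.40, 0.96 and 1.38, and fell by 2.91. Ahr, the aryl hydrocarbon receptor, had a difference of 1.02 and did not pass. Several of these genes are also expressed by surface colonocytes, whose markers fell with them; their part in this fall was not tested.

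Of the fatty acid oxidation and PPAR target list, 7 of 27 tested members fell and none rose (median -1.62), and 2 fell without treated adenoma array 1 and tumor-free array 1. Leaving out treated adenoma arrays 2, 3 and 4 left 3, and leaving out treated adenoma array 1, tumor-free array 2 or tumor-free arrays 3 and 4 left 4 each. Of the 27, 24 were measured in both groups, and 6 of these fell. Hao2, a peroxisomal oxidase of 2-hydroxy acids, had levels of -8.28 and -8.03 in treated adenoma, not above background on any array, against 4.48, 4.45 and 4.84 in tumor-free epithelium. It was at least 1869-fold lower (limma adjusted p = 2.434e-06). Pparg, a nuclear receptor of lipid metabolism, had 0.03 and 0.27, against 2.69, 2.67 and 2.69, and fell by 2.53. Fabp2, the intestinal fatty acid carrier, fell by 8.43, and both Pparg and Fabp2 lost the call without treated adenoma array 1 and tumor-free array 1.

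Genes of the pathways that the 2 drugs act on were read through 2 lists. Prostaglandin genes gave 3 that rose and 3 that fell of 19 tested (median -0.05), with 2 in each direction without treated adenoma array 1 and tumor-free array 1. Of the 19, 3 passed the filter only through tumor-free epithelium, and 3 of the 16 measured in both groups rose and 2 fell. Ptgs2, the inducible cyclooxygenase that sulindac blocks, had levels of 0.70 and -2.51 in treated adenoma, against -2.03, -5.78 and -3.75 in tumor-free epithelium. Its groups overlapped and the difference of 2.95 did not pass (limma adjusted p = 0.171). Ptgs1, the constitutive form, had a difference of 0.35. Hpgd, the enzyme that breaks prostaglandins down, had levels of -1.46 and -1.92, against 2.61, 2.58 and 3.25, with no overlap (log2 difference -4.50 ± 0.60 SE, limma adjusted p = 0.00131). Ptger3, a prostaglandin E2 receptor, was at least 57.5-fold lower by the probe that stood for it, and with the median over its probes the difference shrank to -1.98 and did not pass (limma adjusted p = 0.169). Abcc4, a transporter that exports prostaglandins, rose by 2.65, a call lost without treated adenoma array 1.

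Cholesterol synthesis and uptake genes, the response genes of a statin, gave 0 calls among 25 tested by limma, with 5 at an unadjusted p under 0.05, and 0 without treated adenoma array 1 and tumor-free array 1. Their median was -0.86, and 23 of the 25 differences lay below 0. Both groups had received atorvastatin. Sqle, an enzyme of cholesterol synthesis, had levels of 3.95 and 3.93 in treated adenoma, against 5.20, 5.50 and 5.07 in tumor-free epithelium, with no overlap and a limma adjusted p of 0.0925. Hmgcs1, an early enzyme of the pathway, had a difference of -0.67 that did not pass.

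Among proliferation genes no difference passed. DNA replication and mitosis genes gave 0 calls among 26 tested by limma, with 5 at an unadjusted p under 0.05 and a median of 0.41, and 0 without treated adenoma array 1 and tumor-free array 1. Mki67, a marker of cycling cells, had levels of 4.21 and 4.32 in treated adenoma, against 4.68, 3.76 and 4.74 in tumor-free epithelium, and these overlapped. Epcam and Cdh1, adhesion proteins of epithelial cells, were read as 2 markers of epithelium. Epcam had 5.72 and 5.30, against 6.01, 5.83 and 5.22, and Cdh1 had 5.06 and 4.87, against 5.62, 5.35 and 5.46. Both were high in every sample and neither passed, but Cdh1 was lower in both treated adenoma samples, without overlap. Whether the groups had the same epithelial content was not tested. Of 15 tight junction and adhesion genes tested, 2 fell (Cldn8 by 4.15 and Cldn15 by 3.64). That is 13.3%, near the 10.2% called over all tested genes. The list median was -0.69, and 13 of the 15 differences lay below 0. None fell and 1 rose without treated adenoma array 1 and tumor-free array 1.

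Plasma cell genes fell in treated adenoma. Of the B and plasma cell list, 5 of 8 tested members fell and none rose (median -2.68), and 3 fell without treated adenoma array 1 and tumor-free array 1, without treated adenoma array 1 alone, and without arrays 2, 3 and 4. Of the 8, 3 passed the filter only through tumor-free epithelium, and 2 of the 5 measured in both groups fell. Jchain, the chain that joins secreted immunoglobulins, had levels of -6.32 and -5.41 in treated adenoma, against 4.71, 4.10 and 4.42 in tumor-free epithelium, and 2 of 4 treated adenoma arrays were well above background (log2 difference -10.28 ± 0.69 SE, limma adjusted p = 2.811e-05). Tnfrsf17, a plasma cell receptor, was at least 113-fold lower, and Mzb1, a chaperone of antibody secretion, fell by 5.82, above background on 3 of 4 treated adenoma arrays. The summed linear signal of the 8 tested members was 1.28 and 1.54 in treated adenoma and 40.9, 28.1 and 27.9 in tumor-free epithelium. This sum leaves out Ms4a1 and Cd79a, on the array but not tested, and 3 of its 8 members entered only through tumor-free epithelium. Ighm, an immunoglobulin heavy chain gene, had a difference of -1.35 and did not pass.

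The other cell type lists were short or gave at most 3 calls, and their shares are read against the 10.2% called over all tested genes. Macrophage and dendritic cell genes gave 1 that fell of 13 tested, or 7.7% (Cd163, by 5.64, above background on 1 of 4 treated adenoma arrays, with a list median of 0.39). Of 4 eosinophil genes tested, 2 fell, Prg2 at least 7.65-fold and Rnase2b at least 6.46-fold, but 3 of the 4 were tested through tumor-free epithelium alone. Mast cell genes gave 1 that rose (Hdc, by 5.91) and 1 that fell (Kit) of 6 tested (33.3%). Fibroblast genes gave 1 that rose (Vim, by 2.09) and 1 that fell (Col6a1, by 2.44) of 12 (16.7%), with a median of 0.31. Smooth muscle genes gave 3 that fell of 11 (27.3%), Lmod1, Cnn1 and Hhip, the last above background on 2 of 4 treated adenoma arrays. Cd163, Prg2 and Lmod1 also fell without treated adenoma array 1 and tumor-free array 1, where 1 other fibroblast gene, Thy1, rose and no mast cell gene was called. T cell, endothelial, red blood cell and neural genes gave 0 calls by limma, with 2, 1, 2 and 1 genes at an unadjusted p under 0.05, and 0 calls without these 2 arrays. The calls of Rnase2b, Hdc, Col6a1, Hhip and Cnn1 were lost without treated adenoma array 1, and that of Vim without arrays 2, 3 and 4. The summed fibroblast signal was 159.8 and 244.7 in treated adenoma and 162.2, 154 and 166.1 in tumor-free epithelium, so these overlapped.

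Of the remaining pathway lists, interferon response genes gave 1 that rose (Ifit2, by 3.48, above background on 3 of 4 tumor-free arrays) and 1 that fell (Oas1a, by 2.58) of 16 tested. MHC class II genes gave 1 that fell of 10 (H2-Ob, at least 2.15-fold), glycolysis and hypoxia genes 1 that rose (Pfkfb3, by 2.36) and 1 that fell (Hk1, by 2.01) of 21, and oxidative phosphorylation genes 1 that fell of 23 (Sdha, by 1.93). These shares, 4.3% to 12.5%, stood near or below the background of 10.2%, and each of these calls was lost without treated adenoma array 1. Without treated adenoma array 1, another interferon gene, Cxcl10, was called as risen, with or without tumor-free array 1. Another oxidative phosphorylation gene, Sdhb, was called as fallen without both arrays, but not without treated adenoma array 1 alone. EGF receptor ligand genes gave 0 calls by limma among 13 tested, with 2 at an unadjusted p under 0.05, and 0 without these arrays.

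**Figure D4:**
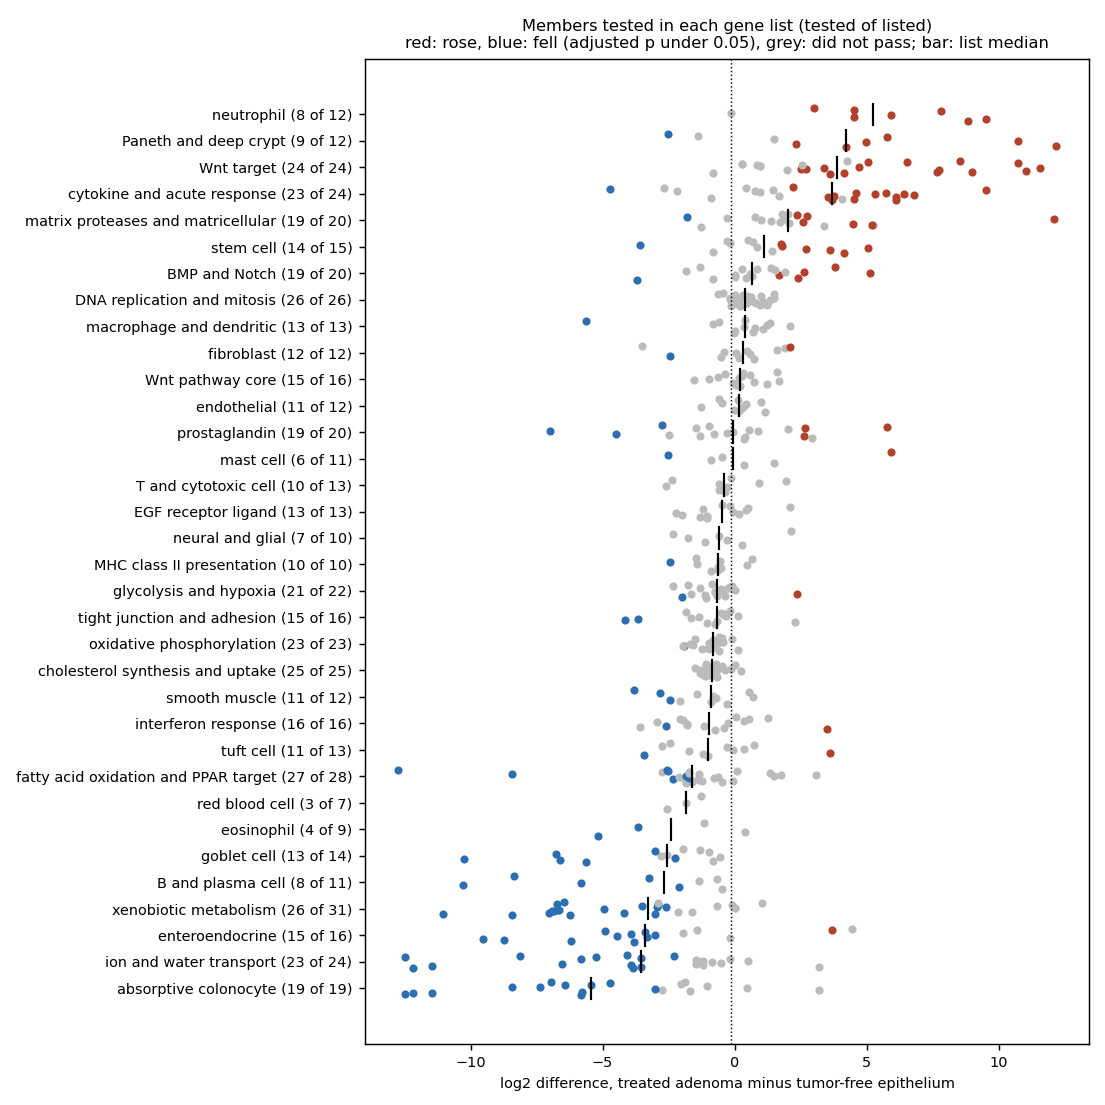
Log2 differences, treated adenoma minus tumor-free epithelium, of the tested members of the 34 gene lists, sorted by list median (black bars). Neutrophil, Paneth and Wnt target genes lie at the top with red points that rose, absorptive, ion transport and enteroendocrine genes at the bottom with blue points that fell, and the dotted line is the median of all tested genes at -0.14.

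Genes measured on every array of both groups and outside the lists gave further wide differences. Spock2, a proteoglycan of the extracellular matrix, had levels of 4.11 and 4.43 in treated adenoma, against -4.49, -3.48 and -4.62 in tumor-free epithelium. Cfi, a complement factor, had 3.79 and 4.13, against -3.45, -3.23 and -5.19. Spock2 and Cfi rose by 8.46 and 7.92, and the rule that named them took only genes without overlap between groups. Tnfrsf11b, a decoy receptor for RANKL, rose by 7.36, Padi4, a histone-modifying enzyme of neutrophils, by 7.27, Foxc2, a forkhead transcription factor, by 7.21, Mt4, a metallothionein, by 7.02, and Sbspon by 6.88. In the other direction, Thbs4, a matricellular protein, had -3.97 and -1.77, against 5.94, 6.03 and 5.83. Sycn, a secretory granule protein, had -2.61 and -1.59, against 6.60, 6.96 and 6.55, and fell by 8.80. The gasdermin genes Gsdmc3 and Gsdmc fell by 8.16 and 8.10, and Gsdmc2 was at least 436-fold lower, although their probes may read each other. Ces2e, a carboxylesterase, had a difference of -7.64 that passed, but on 1 treated adenoma sample only, because array 1 was flagged there, so its spread came from the other groups. Reg3b, an antimicrobial lectin, was at least 1109-fold higher in treated adenoma, and Prkg2, Prom2 and Slc38a4 at least 392-fold, 233-fold and 232-fold higher. Akr1c14, an aldo-keto reductase, was at least 394-fold lower.

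Of the 105 genes named by rule, 93 passed, 42 higher and 51 lower, and 67 of these kept the call without treated adenoma array 1 and tumor-free array 1 (31 higher, 36 lower). Apart from a fixed set, the rule took only genes that had passed, so 93 of 105 is not a pass rate. Among the named genes, 8 of the 105 also differed between treated and untreated adenoma in the same fit, in which 34 of the tested genes passed (0.184%). That contrast shares its treated arrays with the main one. Mptx1, a pentraxin of the mucosa, had levels of 2.38 and 2.07 in treated adenoma, -8.55 and -7.10 in untreated adenoma, and 6.66, 6.60 and 6.19 in tumor-free epithelium. Its treated adenoma samples lay between the other groups, 4.26 log2 units below tumor-free epithelium and 10.05 above untreated adenoma (limma adjusted p = 0.000549 and 9.05e-05). Nqo1 had -1.83 and -1.50 in treated adenoma, 0.93 and 1.38 in untreated adenoma and 1.40, 0.96 and 1.38 in tumor-free epithelium, so only the treated samples were low. Hao2 had -2.90 and -4.30 in untreated adenoma, between its levels in treated adenoma and in tumor-free epithelium. The others were Zg16 and Rnase2b, lower in treated than in untreated adenoma, and Defa21, Defa29 and Mt4, higher. No tested gene passed between the epithelium of tumor-bearing and tumor-free mice by limma, with 514 at an unadjusted p under 0.05, and the diet of the tumor-bearing mice differs between label and protocol. The near-identical arrays 2 of these groups (SD 0.183) counted as separate samples on opposite sides, which draws differences toward 0. The tested genes were chosen by their signal in treated adenoma and tumor-free epithelium only.

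**Figure D5:**
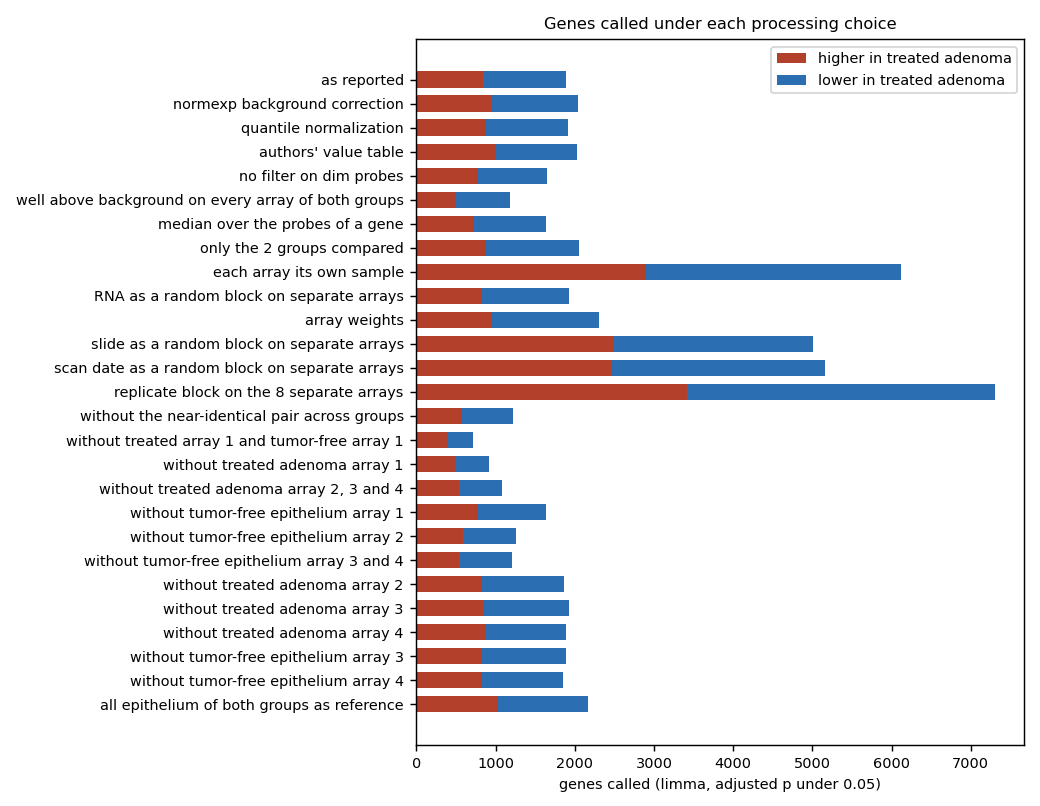
Number of genes called by limma under each processing choice, split into genes higher (red) and lower (blue) in treated adenoma. The count was 1883 as reported, 709 without treated adenoma array 1 and tumor-free array 1, and 7312 with all 8 arrays as separate samples paired by number.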

How the data were processed

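RNA of laser microdissected colon cells was amplified, labelled with 1 dye and hybridised to Agilent mouse arrays, per the labels' protocols. The deposited intensity of each spot was background-subtracted within its array and not normalized between arrays, per the file headers, and came from Agilent Feature Extraction 9.5.3, per the submitters' processing notes. The authors' deposited log2 value table served as an alternative only. Control and outlier spots were left out, and levels are log2 intensities minus the 75th percentile of the same array. Probes (41174) were named through RefSeq accession (22951), symbol (6659) or synonym (3109), 1473 kept the file's name and 6982 had none. The probe with the highest mean stood for a gene, and 18448 of 27824 features were tested, those that all arrays of 1 or both groups measured well above background. Array number limits the precision.

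Arrays nearer to each other than their spot noise were averaged, and 10 samples of 4 groups were fitted with limma 3.58.1 in R 4.3.3 (6 residual degrees of freedom, two-sided, Benjamini-Hochberg over all tested genes). On simulated arrays of this comparison with 18448 genes, limma recovered 0.5%, 87% and 97.5% of genes changed by 2, 4 and 6 on the log2 scale. Genes were named by rule: the 10 highest rises and 10 deepest falls measured on every array without overlap, the 6 highest bounds in each direction, in each list the 3 called members of highest absolute moderated t, and a set of Wnt, cholesterol, prostaglandin and cell type genes. Some genes named by this rule are not reported here. Other list members are given as examples chosen after their values were seen. Members and lists were chosen with earlier results of these data known. Same-numbered arrays correlated at 0.454, 0.23, 0.03 and 0.055 in their deviations. Treated adenoma arrays 2, 3 and 4 are near-identical, as are tumor-free arrays 3 and 4, so these values cannot tell whether the numbers pair the samples.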

Additional observations from a re-analysis of the deposited data

How the results depend on the processing

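Of the 93 named genes that passed, 64 passed under each alternative that tested them (34 of 55 tested under all 26 alternatives and 30 of 37 tested under 25, most often because 1 group was not above background on every array), and 1, Pfkfb3, changed direction under any. With each RNA as 1 sample and none left out, the settings changed the count of 1883 by less than 1.5 times, except requiring both groups well above background (1185, with 500 higher and 685 lower). Settings that treat near-identical arrays as separate called far more: 6119 with each array its own sample (2902 higher, 3217 lower), 5014 with slide as a random block (2484, 2530), 5159 with scan date as a random block, added after seeing the data (2472, 2687), and 7312 with the replicate block on the 8 arrays (3421, 3891), in which the pairing rests on a shared number only. Treated adenoma array 1 correlated best with tumor-free array 1, and arrays 2, 3 and 4 each correlated best with tumor-free array 2. The planned fixed scan-date block and within-date values could not be had, since no date held both groups. Leaving out 1 sample or array at a time gave 917 to 1923 genes (498 to 870 higher, 419 to 1073 lower), lowest without treated adenoma array 1. Among these, 1083 passed without treated adenoma arrays 2, 3 and 4 (534, 549) and 1210 without tumor-free arrays 3 and 4 (541, 669). Without arrays 1 of both groups 709 passed (400, 309), which moved the higher share from 44.5% to 56.4%, and without the near-identical pair across groups 1213 (581, 632). Among genes that did not pass, Apc turned to -0.47 with the median over probes, -0.12 with separate arrays and with the replicate block, -0.088 with the scan date block, -0.29 without arrays 1 of both groups and -0.40 without treated adenoma array 1, against 0.219 as reported, 0.325 without tumor-free array 1 and up to 0.837 without treated adenoma arrays 2, 3 and 4. Epcam turned to 0.25 with quantile normalization, 0.18 in the authors' table and 0.034 without treated adenoma arrays 2, 3 and 4. Mki67 turned to 0.18 and 0.063 in those first 2 settings, 0.075 without arrays 1 of both groups, 0.018 without tumor-free array 1 and 0.047 without tumor-free arrays 3 and 4. Pfkfb3 turned to -0.44 with the median over probes. The cause of these turns was not tested.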

Other observations

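Some gene families held many called members; they were chosen after their values were seen and carry no test as families, and 4.54% of all tested genes were higher and 5.67% lower. Of 5 Reg genes tested, secreted lectins, 4 rose in treated adenoma, and 3 rose without treated adenoma array 1 and tumor-free array 1. All 4 passed the filter only through treated adenoma. Reg3a was at least 6.8-fold higher. Reg3g had a fitted difference of 11.46 with 1 of 4 tumor-free arrays well above background, and lost its call without those 2 arrays (limma adjusted p = 0.102). Reg1 had 5.53 with 2 of 4, and lost its call with RNA as a random block (limma adjusted p = 0.383). The fourth was Reg3b, and Reg4 did not pass.

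Wnt ligand genes were mixed: 4 of 12 rose, with and without those 2 arrays, and 5 of the 12 differences lay below 0. Of the 12, 6 passed the filter through 1 group only. Wnt6 was measured on every array and rose by 4.45, and Wnt16 was at least 80.2-fold higher. Wnt10a and Wnt3 had fitted differences of 9.71 and 6.32, with 2 and 1 of 4 tumor-free arrays well above background. Beta-protocadherins, adhesion proteins known from neurons, rose in 10 of 14 tested members, with none falling, but only Pcdhb6 kept its call without treated adenoma array 1 and tumor-free array 1, and Pcdhb15 and Pcdhb17 without treated adenoma array 1 alone. Among the genes lower in treated adenoma were 9 of 12 carboxylesterases, of which Ces2b fell by 6.76 and Ces2e rests on 1 treated adenoma sample, and 6 fell without those 2 arrays. Of 11 immunoglobulin kappa variable genes, 10 fell, and 6 without those 2 arrays, with 10 of the 11 tested through tumor-free epithelium alone. Of the 14 protocadherins, 5 passed the filter only through treated adenoma, where they are high. Of the 12 carboxylesterases, 3 passed it only through tumor-free epithelium. Members of the protocadherin, carboxylesterase and immunoglobulin families are similar in sequence, so their probes may read each other.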
